A study of Penicillium oxalicum with 6 samples.

Results

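The genes numbered POX09332 to POX09361 in Penicillium oxalicum, a mould that breaks down plant cell walls with enzymes it secretes, form a block of 30 consecutive identifiers among the 9834 genes measured. They were chosen by number, because many of them had been seen to be lower in a mutant of the gene POX05503 than in a Ku70 mutant. Their differences between these strains, and the calls made on them, are therefore a description, given without p-values, and support nothing further. The block is not uniform. A first stretch of 9 genes (POX09332 to POX09340) and a second stretch of 8 genes (POX09354 to POX09361) were lower in the POX05503 mutant, by a median of -5.35 for the first and -4.82 for the second on the log2 scale. The 13 genes between them (POX09341 to POX09353) were a mixture of higher genes, a lower gene, genes not called and genes hardly detected.

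The data are 6 RNA-seq libraries, 3 from the strain labelled MuPOX05503 and 3 from the strain labelled Ku70. Mycelium (1 g) of either strain had been shaken for 24 h at 28 °C and 180 rpm in 100 mL of liquid medium with 1% Avicel, a microcrystalline cellulose, as the carbon source. The labels name MuKu70 spores in the growth protocol of all 6 libraries and do not say whether MuPOX05503 carries the Ku70 mutation as well, how many transformants were used, or whether the 3 libraries of a strain came from separate cultures. The series concerns protein kinases that regulate cellulase and xylanase genes. Total expected counts, which are estimated reads per gene, were 13653015.5 to 14263916 per library. POX05503 itself had a count of 0 in every MuPOX05503 library and of 470 to 539 in the Ku70 libraries, at least 499.8-fold lower if the 3 mutant libraries together are set at 3 counts. Levels are given as FPKM (fragments per length of gene and depth of library) as deposited, and fold changes as MuPOX05503 over Ku70 from edgeR with TMM scaling. RNA came from whole mycelium, so that fewer cells expressing a gene and less RNA per cell cannot be told apart.

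In filamentous fungi, genes that act in one biosynthetic route are often neighbours on a chromosome and are often switched on and off together. The best-known cases are the clusters for secondary metabolites, in which genes for large synthases and synthetases lie beside genes for modifying enzymes, transporters and at times a regulator. The same fungi adjust many genes to the carbon source through signalling that includes protein kinases. The data give no product for any of the 30 genes. By identifier, 0 of all 9834 genes, and so 0 of the 30, could be found in the RefSeq table of this species. No gene below is therefore given a function. Whether consecutive numbers are neighbours on a chromosome is not known from the sources used here.

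Across the block, 27 of the 30 genes were abundant enough to be tested, and 18 of these were called at least 2-fold lower in MuPOX05503 and 5 at least 2-fold higher. A gene was called when its edgeR p, adjusted over all 8801 genes tested, was under 0.05. Over all tested genes, 13.9% were called at least 2-fold lower and 11.5% at least 2-fold higher, and 32.6% were called lower and 31.9% higher at any size. The block was chosen on this comparison, so nothing is read from the excess. The remaining 4 tested members were not called. All 27 tested members reached the abundance limit of 1 FPKM in at least 1 library of each strain. POX09347 and POX09354 did so in only 2 MuPOX05503 libraries, so they met the required 3 libraries only with those of Ku70.

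The median log2 fold change of the tested members was -3.12, beside 0.01 over all tested genes. In 18 members every MuPOX05503 library was below every Ku70 library, and in 6, among them the untested POX09348, every MuPOX05503 library was above, where 29.7% and 41.6% of all tested genes did so. These orders are in FPKM as deposited, without the TMM scaling used for the calls and fold changes. Of the 17 genes in the stretches, all were at least 4-fold lower and 11 were at least 16-fold lower, as were 5.48% and 1.02% of all tested genes.

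**Figure D1:**
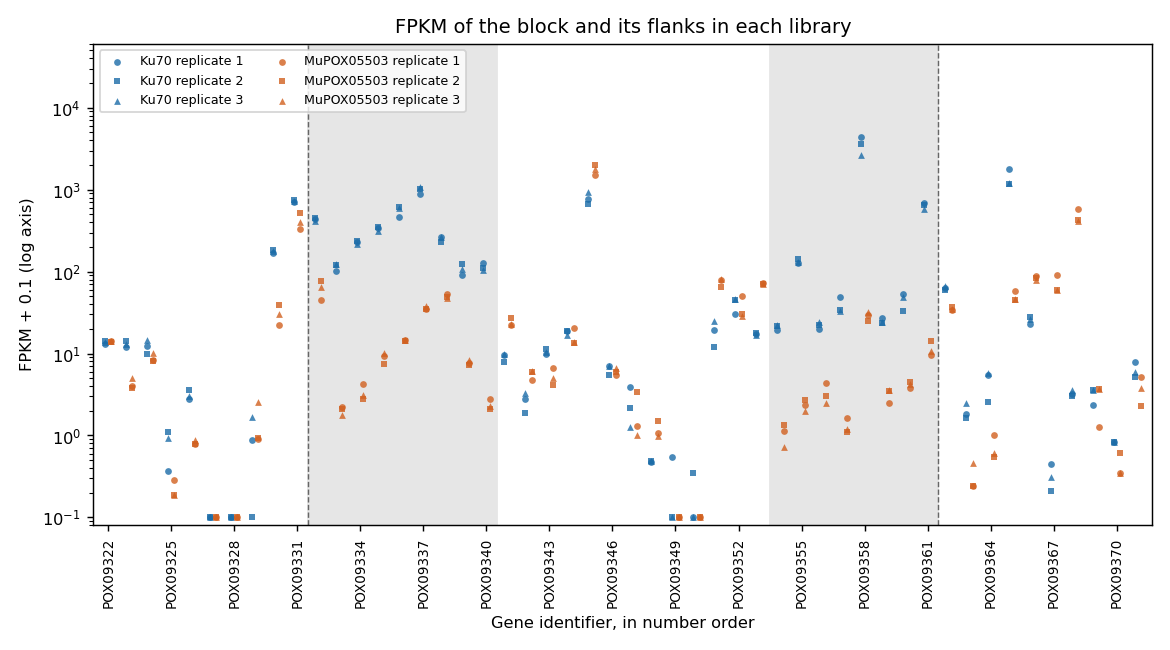
FPKM (plus 0.1, log axis) of the 30 genes and 10 numbers on either side in each of the 6 libraries, in order of identifier number. Grey bands mark the 9 and 8 genes of the falling stretches and dashed lines the borders of the block. For each gene within the bands, every MuPOX05503 point lies below every Ku70 point of that same gene.

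**Figure D2:**
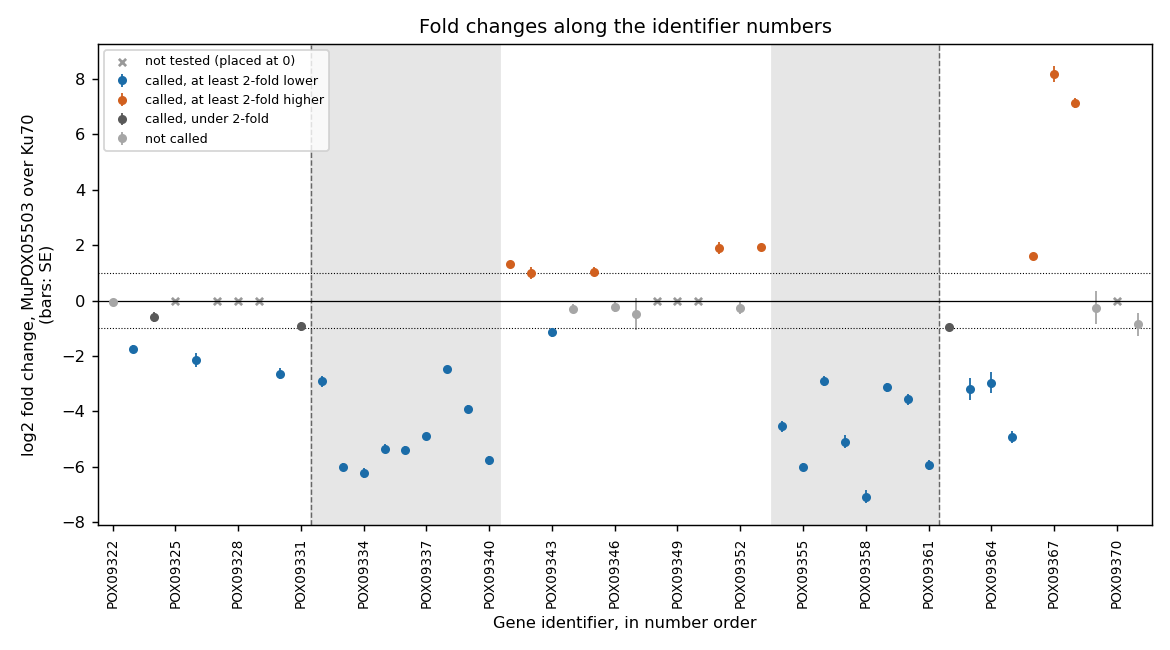
Log2 fold change (MuPOX05503 over Ku70, bars are the SE of the edgeR fit) along the identifier numbers, with dotted lines at a 2-fold change. The values in the grey bands lie between -7.08 and -2.45, and those between the bands lie between -1.14 and 1.95.

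The 30 genes together made up 1.42 ± 0.0782% of the counts of the Ku70 libraries and 0.154 ± 0.0134% of those of the MuPOX05503 libraries (SD, n = 3 here and below). The first stretch, with its longer genes, held most of the block's reads in Ku70, with 1.05 ± 0.0272% of all counts, against 0.0626 ± 0.00937% in MuPOX05503. The second stretch held 0.331 ± 0.0629% in Ku70 and 0.00511 ± 7.21e-05% in MuPOX05503. For the genes between, the order was the other way, with 0.0417 ± 0.00501% in Ku70 and 0.0862 ± 0.00437% in MuPOX05503. In the mutant libraries the genes between thus held more reads than both stretches together, which were at 0.0677 ± 0.00933%. On the FPKM scale, which divides by length, the order of the stretches in Ku70 was the other way. Summed levels were 3139.9 ± 186 FPKM for the first and 4485 ± 924 FPKM for the second. One gene, POX09358, made up 78.9 ± 3.16% of the second stretch's FPKM in Ku70. The share of the whole block was 9.25 times as large in Ku70 as in MuPOX05503 by counts, and 3.96 times by summed FPKM (0.869% and 0.219%). In MuPOX05503 the gene POX09345 alone had a mean of 1764 FPKM, out of 2247 FPKM summed over the block.

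**Figure D3:**
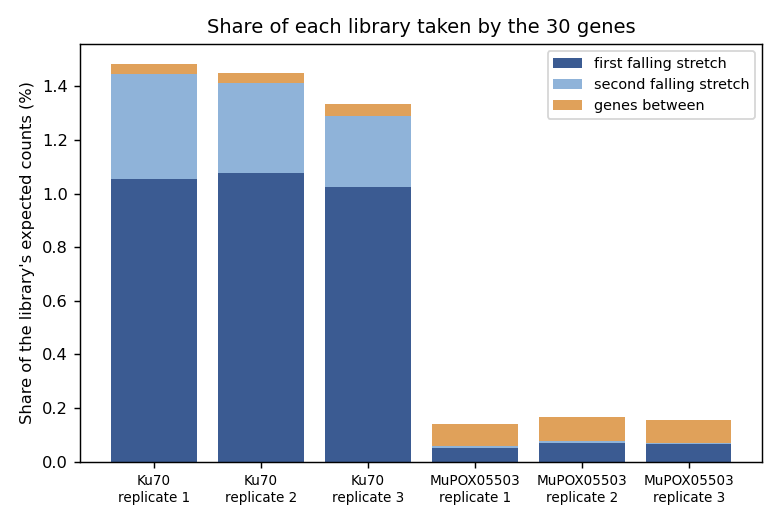
Share of each library's expected counts (%) taken by the 30 genes, as bars stacked by first stretch, second stretch and the genes between. The Ku70 bars reach 1.34 to 1.48% and are mostly the first stretch, and the MuPOX05503 bars reach 0.140 to 0.167% and are mostly the genes between.

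The first stretch holds 4 large genes among its 9. Gene length is not in the files, but the ratio of a count to its FPKM gives an effective length, the part of a transcript in which a fragment can start. That of POX09340 was 22575 bases, the second longest of the 8430 genes with at least 100 counts over the 6 libraries. POX09332 (6603 bases), POX09335 (5041 bases) and POX09334 (4622 bases) were also among the 200 longest, which are 2.37% of those genes. The other 5 genes of the stretch had 604 to 1569 bases. In the second stretch the effective lengths were 672 to 2366 bases, and none of its 8 genes was among the 200 longest.

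POX09332, the first number of the block, was at 433, 445 and 419 FPKM in Ku70 replicates 1, 2 and 3 and at 44.4, 77.6 and 64.5 FPKM in MuPOX05503 replicates 1, 2 and 3. Its log2 fold change was -2.90 (SE 0.20), a 7.49-fold lower level. The strains did not overlap, and the difference was smaller than that of every other gene of the stretch except POX09338. This long gene made up 27.1 ± 0.131% of the stretch's counts in Ku70, and in MuPOX05503 64.8 ± 8.29%.

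The next 4 numbers were 40.8-fold to 75.1-fold lower. POX09333 was at 102, 122 and 122 FPKM in Ku70 and at 2.14, 1.98 and 1.69 FPKM in MuPOX05503 (log2 fold change -5.99, SE 0.14, 63.6-fold lower). POX09334 was at 227, 235 and 219 FPKM in Ku70 and at 4.14, 2.68 and 2.99 FPKM in MuPOX05503 (log2 fold change -6.23, SE 0.18). It was the gene of this stretch with the greatest difference, 75.1-fold. POX09335 was at 338, 354 and 314 FPKM in Ku70 and at 9.22, 7.30 and 10.1 FPKM in MuPOX05503 (log2 fold change -5.35, SE 0.16). POX09336 was at 459, 617 and 596 FPKM in Ku70 and at 14.4, 14.1 and 14.4 FPKM in MuPOX05503 (log2 fold change -5.39, SE 0.14). In these 4 genes the Ku70 libraries differed from each other by at most 1.34-fold, far less than the strains did.

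POX09337 had the highest level of the stretch per length, with 884, 1023 and 1088 FPKM in Ku70 and 35.2, 35.3 and 37.6 FPKM in MuPOX05503. That is a 29.8-fold lower level (log2 fold change -4.90, SE 0.12). In Ku70 it ranked 157 by mean FPKM among the 9834 genes, and in MuPOX05503 it ranked 3770.

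The last 3 numbers of the first stretch differed among themselves. POX09338 was at 262, 229 and 268 FPKM in Ku70 and at 52.9, 48.5 and 48.1 FPKM in MuPOX05503. Its log2 fold change of -2.45 (SE 0.10), a 5.48-fold lower level, was the smallest in size of the 17 genes in the stretches. POX09339 was at 90.8, 123 and 107 FPKM in Ku70 and at 7.66, 7.10 and 8.19 FPKM in MuPOX05503 (log2 fold change -3.91, SE 0.13). The very long POX09340 was at 129, 110.1 and 104 FPKM in Ku70 and at 2.65, 2.01 and 2.17 FPKM in MuPOX05503 (log2 fold change -5.76, SE 0.17, 54.3-fold lower). It held 24.5 ± 2.57% of the stretch's counts in Ku70, although per length it had the second lowest mean FPKM of the stretch there.

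Between the stretches, the change of direction came within 1 number. POX09341, next after POX09340, was at 9.47, 7.71 and 9.80 FPKM in Ku70 and at 22.1, 27.0 and 22.9 FPKM in MuPOX05503 (log2 fold change 1.31, SE 0.13). From POX09340 to POX09341 the log2 fold change thus moved by 7.07. POX09342 was at 2.67, 1.76 and 3.21 FPKM in Ku70 and at 4.60, 5.82 and 6.09 FPKM in MuPOX05503, and its log2 fold change of 1.00 (SE 0.22) lay at the 2-fold limit. POX09343 was the only gene between the stretches that was called lower, from 9.83, 11.4 and 10.5 FPKM in Ku70 to 6.57, 4.07 and 4.88 FPKM in MuPOX05503 (log2 fold change -1.14, SE 0.16).

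POX09345 was by far the most abundant gene between the stretches. It was at 777, 669.7 and 931 FPKM in Ku70 and at 1512, 2008 and 1771 FPKM in MuPOX05503 (log2 fold change 1.05, SE 0.15), and its effective length was 286 bases. By mean FPKM it ranked 216 in Ku70 and 54 in MuPOX05503, the highest rank of any member in the mutant. It held 54.2 ± 3.44% of the counts of the genes between in Ku70 and 58.4 ± 5.48% in MuPOX05503.

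Close to the second stretch, 2 genes were higher by a larger factor. POX09351 was at 19.3, 11.9 and 24.8 FPKM in Ku70 and at 79.4, 64.1 and 81.0 FPKM in MuPOX05503 (log2 fold change 1.89, SE 0.22). POX09353, the last number before the second stretch, was at 17.2, 17.6 and 16.7 FPKM in Ku70 and at 73.2, 71.4 and 69.7 FPKM in MuPOX05503 (log2 fold change 1.95, SE 0.08). Among the tested genes between it had the smallest SD relative to its mean in both strains, and it was 3.86-fold higher. POX09352, which lies between these in number, was at 30.1, 45.0 and 46.6 FPKM in Ku70 and at 49.7, 30.4 and 28.4 FPKM in MuPOX05503, where the strains overlapped and the gene was not called (log2 fold change -0.28, SE 0.21).

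The count of 5 genes at least 2-fold higher depends on single libraries and on the method, since POX09342 and POX09345 lie at the limit. With all 6 libraries it was 4 under upper-quartile factors, DESeq2 and limma on log2(FPKM + 1). The log2 fold change of POX09342 was 0.957, 0.997 and 0.889 there. It was 3 without MuPOX05503 replicate 2, where their log2 fold changes were 0.96 and 0.95, and 3 without Ku70 replicate 2, where they were 0.79 and 0.94. Both genes remained called as higher in these fits. The count of 18 genes at least 2-fold lower was 17 without MuPOX05503 replicate 2 and with limma on log2(FPKM + 1). There POX09343 had log2 fold changes of -0.99 and -0.92 and remained called as lower.

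The rest of the genes between were not called or not tested. POX09344 was at 18.6, 18.5 and 16.5 FPKM in Ku70 and at 20.3, 13.3 and 13.9 FPKM in MuPOX05503, with overlapping strains (log2 fold change -0.29, SE 0.16). POX09346 was at 6.98, 5.34 and 6.97 FPKM in Ku70 and at 5.34, 5.92 and 6.56 FPKM in MuPOX05503 (log2 fold change -0.22, SE 0.17). POX09347 was at 3.77, 2.05 and 1.18 FPKM in Ku70 and at 1.19, 3.32 and 0.90 FPKM in MuPOX05503, on 3 to 13 reads a library. At that depth a difference of its size (log2 fold change -0.48, SE 0.59) was not detectable.

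The 3 consecutive numbers POX09348 to POX09350 were hardly detected in either strain and were not tested. POX09348 had 4 reads in each Ku70 library and 9 to 14 in the MuPOX05503 libraries, without overlap; in a fit without the abundance limit it was called higher (log2 fold change 1.37, SE 0.40). POX09349 and POX09350 had 1 read each over the 3 Ku70 libraries and 0 over the 3 MuPOX05503 libraries, both below the floor of 3 counts over a group. No fold is given for these last genes.

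The second stretch began as abruptly as the first ended. From POX09353 to POX09354 the log2 fold change moved by 6.48 while the Ku70 levels of the neighbours were close (17.2 ± 0.490 and 21.0 ± 1.48 FPKM). POX09354 was at 19.4, 21.4 and 22.2 FPKM in Ku70 and at 1.03, 1.25 and 0.62 FPKM in MuPOX05503 (log2 fold change -4.54, SE 0.19), and rested on 9 to 18 reads a library in the mutant. POX09355 was at 127, 143 and 132 FPKM in Ku70 and at 2.26, 2.63 and 1.90 FPKM in MuPOX05503 (log2 fold change -5.99, SE 0.13). Its 63.7-fold difference was close to that of POX09333 in the first stretch. POX09356 was at 19.7, 22.4 and 24.4 FPKM in Ku70 and at 4.24, 2.94 and 2.40 FPKM in MuPOX05503 (log2 fold change -2.90, SE 0.17), the smallest difference of the second stretch.

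POX09357 was at 49.3, 33.8 and 32.7 FPKM in Ku70 and at 1.54, 1.01 and 1.11 FPKM in MuPOX05503 (log2 fold change -5.10, SE 0.23). The next number, POX09358, was the most abundant gene of the block in Ku70, at 4372, 3651 and 2655 FPKM, and was at 29.2, 24.8 and 31.6 FPKM in MuPOX05503. Its log2 fold change of -7.08 (SE 0.24), a 135-fold lower level, was the largest in size of all 30 members. It ranked 27 by mean FPKM among the 9834 genes in Ku70 and 4387 in MuPOX05503, and it was the only gene of the stretches among the 100 most abundant in Ku70. Of the counts of the second stretch it held 71.8 ± 4.03% in Ku70 and 37.6 ± 4.80% in MuPOX05503.

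The last 3 numbers of the block were lower too, but by unequal factors. POX09359 was at 27.2, 23.4 and 24.0 FPKM in Ku70 and at 2.40, 3.34 and 3.50 FPKM in MuPOX05503 (log2 fold change -3.12, SE 0.16). POX09360 was at 53.3, 32.7 and 48.2 FPKM in Ku70 and at 3.69, 4.40 and 4.13 FPKM in MuPOX05503 (log2 fold change -3.56, SE 0.21). POX09361, the last member, was at 695, 645 and 582 FPKM in Ku70 and at 9.45, 14.1 and 10.7 FPKM in MuPOX05503 (log2 fold change -5.92, SE 0.18, 60.4-fold lower). It was the second most abundant gene of the stretch in both strains.

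Compared per length, the stretches had different spreads of level. In Ku70 the mean FPKM of the first stretch ranged from 107 to 998, 9.32-fold from lowest to highest gene, and that of the second stretch from 21.0 to 3559, or 169-fold. In MuPOX05503 the ranges were 1.94 to 62.2 FPKM and 0.967 to 28.6 FPKM, or 32.1-fold and 29.5-fold. Abundant genes of the stretches in Ku70 tended to be the more abundant in MuPOX05503 (Spearman rho = 0.77 and Pearson r = 0.76 on log2 mean FPKM across 17 genes). This is a description across genes that share the same 6 libraries and are not independent. None of the 17 genes was without reads in the mutant, where they had 9 to 6999 reads a library.

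**Figure D4:**
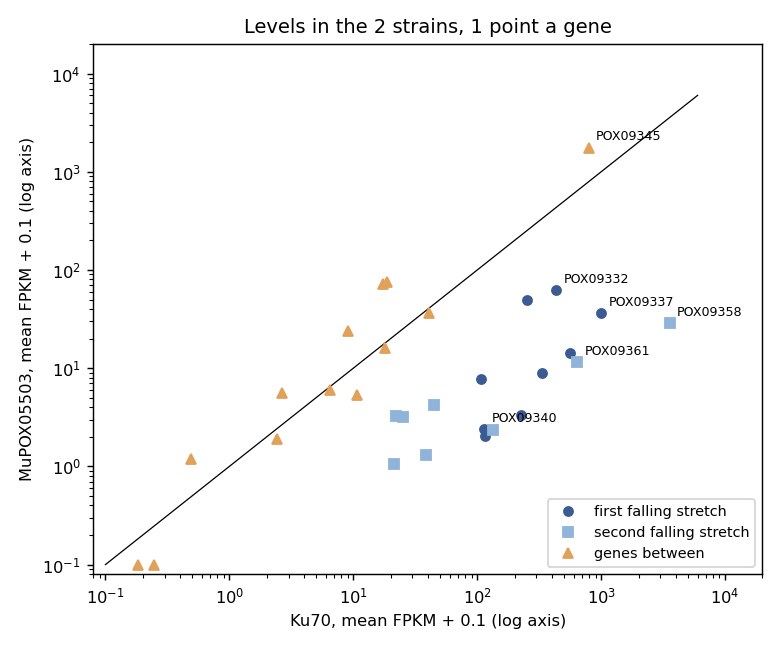
Mean FPKM (plus 0.1, log axes) of each of the 30 genes in Ku70 and MuPOX05503, with the line of equal levels. The 17 genes of the stretches lie below the line, at 21.0 to 3559 FPKM in Ku70 and from 0.967 to 62.2 FPKM in MuPOX05503; POX09345 is the abundant gene above it.

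The inner edges of the stretches, toward the genes between, are steps of 7.07 and 6.48 on the log2 scale, whereas the outer edges depend on the fold limit. Just outside the lower border, POX09331 was at 705, 753 and 735 FPKM in Ku70 and at 328, 519.7 and 399.8 FPKM in MuPOX05503. It was called lower, and its log2 fold change of -0.92 (SE 0.16) was short of the 2-fold limit, while POX09332 just inside was at -2.90. One number further out, POX09330 was at 167, 183 and 179 FPKM in Ku70 and at 22.2, 39.6 and 30.2 FPKM in MuPOX05503 (log2 fold change -2.63, SE 0.19). Its difference was thus close in size to that of POX09332, and the larger step, of 3.09, lay between POX09332 and POX09333.

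Just outside the upper border, POX09362 was at 62.7, 58.8 and 67.1 FPKM in Ku70 and at 33.8, 36.4 and 34.4 FPKM in MuPOX05503. Its log2 fold change was -0.96 (SE 0.09), called lower and short of the limit, against -5.92 for POX09361 just inside. The next numbers out were lower as well. POX09363 and POX09364 were scarce genes, at 1.87 ± 0.448 and 4.50 ± 1.76 FPKM in Ku70 against 0.213 ± 0.127 and 0.617 ± 0.248 FPKM in MuPOX05503. Both reached the abundance limit in Ku70 only, so that they entered the test through the strain where they were higher. In MuPOX05503 they rested on 2 to 5 and 11 to 23 reads a library. POX09365 was abundant, at 1778, 1178 and 1212 FPKM in Ku70 and at 57.3, 45.2 and 46.0 FPKM in MuPOX05503 (log2 fold change -4.93, SE 0.21).

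With a limit of 1.5-fold in place of 2-fold, and runs free to pass the borders, the first stretch ran from POX09330 to POX09340 (11 genes) and the second from POX09354 to POX09365 (12 genes). Any run to POX09365 takes in POX09363 and POX09364, which reached the abundance limit in Ku70 only. At 4-fold the extents were again 9 and 8 genes. At 8-fold the first stretch broke at POX09338 into 5 and 2 genes and began at POX09333, and the second broke at POX09356 into 2 and 5 genes. Single libraries decided the outer edges at 2-fold: without MuPOX05503 replicate 2 the first stretch held 11 genes from POX09330, and without Ku70 replicate 2 the second held 12 genes to POX09365. Upper-quartile scaling also gave 12 genes for the second stretch.

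Beyond the lower border no run could be followed past POX09330, because the next numbers were not tested. Of the 10 flanking numbers POX09322 to POX09331, 6 were tested. Of these, 5 were called lower, against 32.6% of all tested genes, and 1 was not called. At least 2-fold lower were 3, against 13.9% of all tested genes. Besides POX09330 these 3 were POX09323, at 13.0 ± 1.09 FPKM in the Ku70 libraries and 4.16 ± 0.650 FPKM in the MuPOX05503 libraries, and POX09326, at 3.0 ± 0.408 and 0.720 ± 0.0608 FPKM. The 3 numbers directly below POX09330 had at most 2.43 FPKM in any library and were not tested.

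Beyond the upper border the direction turned. Of POX09362 to POX09371, 9 were tested. At least 2-fold lower were 3 (POX09363 to POX09365), against 13.9% of all tested genes. At least 2-fold higher were 3 (POX09366 to POX09368), against 11.5%. POX09362 was called lower by less than 2-fold, and 2 were not called. Of the 15 tested flanking genes, 4 (POX09326, POX09363, POX09364 and POX09367) reached the abundance limit in one strain only. POX09366 was at 23.0, 28.0 and 26.0 FPKM in Ku70 and at 88.6, 83.2 and 78.7 FPKM in MuPOX05503. POX09367 was nearly without reads in Ku70, at 0.35, 0.11 and 0.21 FPKM, and was at 90.8, 59.9 and 60.3 FPKM in MuPOX05503 (log2 fold change 8.17, SE 0.30). POX09368 was at 3.07, 2.92 and 3.52 FPKM in Ku70 and at 587, 430.0 and 418 FPKM in MuPOX05503 (log2 fold change 7.12, SE 0.18). Within 4 numbers, from POX09365 to POX09368, the flank thus held a gene 30.4-fold lower and one 139-fold higher in MuPOX05503.

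Differences between libraries of one strain were not used to choose the block. At the lower outer edge, POX09330, POX09331 and POX09332 shared their order in MuPOX05503, lowest in replicate 1 and highest in replicate 2, with the highest over the lowest library at 1.78, 1.58 and 1.75. Of all tested genes, 23.0% had that order, and the median ratio of highest to lowest library was 1.19. POX09333 and POX09334 had the highest value in replicate 1 instead, and of the 9 genes in the first stretch POX09332 alone had the order of its outer neighbours. Ratios of at least 1.5 were also found away from this edge. In MuPOX05503 the ratio was at least 1.5 in 5 of the 17 genes of the stretches, and in 15.1% of all tested genes. Besides POX09332, those in the stretches were POX09334, POX09354, POX09356 and POX09357, with 9 to 265 reads a library in the mutant. POX09332 had 4058 to 6999 there, and genes of like depth were not compared.

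Within the second stretch, 5 of the 8 genes, POX09357 to POX09361, were highest in Ku70 replicate 1, as were 27.6% of all tested genes. The ratio of highest to lowest Ku70 library was 1.51 for POX09357, 1.65 for POX09358 and 1.63 for POX09360, against a median of 1.2 over all tested genes. In the first stretch 5 of the 9 genes were highest in Ku70 replicate 2, where 34.7% of all tested genes were, and the median ratio of highest to lowest Ku70 library was close in both stretches (1.2 and 1.22). With 3 libraries a strain, these orders are a description only.

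**Figure D5:**
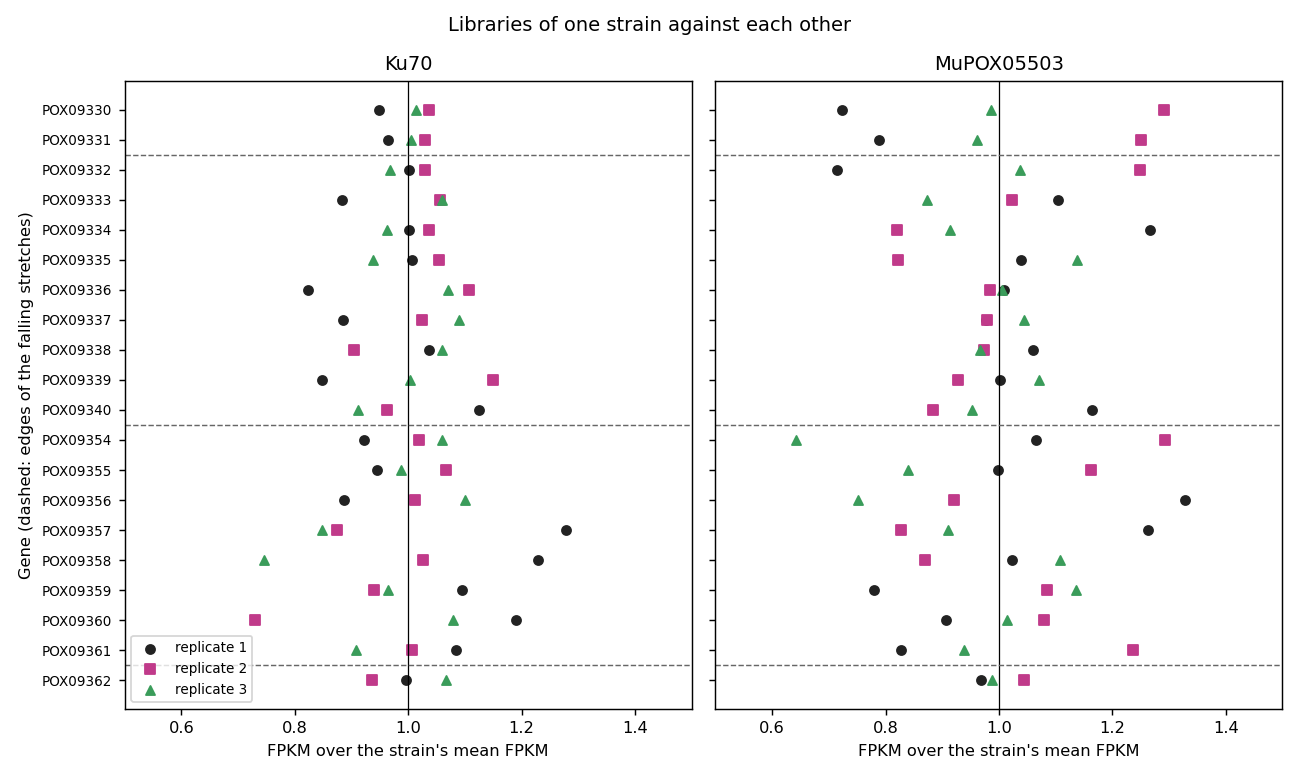
FPKM of each library over the mean of its strain, for the 17 genes of the stretches and 3 genes next to them, in Ku70 (left) and MuPOX05503 (right); dashed lines mark the edges of the stretches. POX09330 to POX09332 share a wide spread in MuPOX05503 (1.58 to 1.78 from lowest to highest library), which POX09333 (1.27) does not show. Of the 17 genes of the stretches, 5 had a ratio of at least 1.5 in MuPOX05503, among them POX09332, POX09334 (1.54) and POX09354 (2.02).

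Where reads are divided among near-identical copies, the estimated counts are not whole. None of the 30 members or 20 flanking genes had such a count in any library, at a tolerance of 0.005. The effective length implied by a gene's count and FPKM varied across libraries by a median factor of 1.00 in the 17 genes of the stretches. The strand setting is not given in the sources used here. Reads of genes overlapping on opposite strands, if any of these neighbours overlap, cannot be told apart.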

How the data were processed

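The authors deposited 1 table per library, whose expected counts (estimated reads per gene, not normalized, per the file headers) and FPKM values (scaled to gene length and depth, per the file headers) were both used. The submitters' processing notes list, without saying what each did, RSEM 1.2.12, Bowtie2 2.1.0, DESeq2 and BWA 0.7.10-r789; the sources used here give no genome build, annotation or strand setting. After rounding, the estimated counts were tested with the quasi-likelihood test of edgeR 4.0.16 (R 4.3.3; TMM factors) and Benjamini-Hochberg adjustment over the 8801 genes that reached 1 FPKM in 3 or more of the 6 libraries. Strain was the only term. The SE is the log2 fold change over the root of its F statistic. Members, flanks and limits were chosen with earlier results of these data known, so members' calls are descriptions and no p is printed for them. Named are all members, the flanking numbers next to the block and those called with at least a 2-fold change among 10 on each side, and POX05503. The depth was 13653015.5 to 14263916 counts per library; floors cover counting error only. Between libraries of a strain the chi-square per degree of freedom was 9.54 to 42.5, and no tables were identical. As separate cultures are not stated, p-values cover the spread of these libraries only, which may be technical. The test was checked on simulated data. Alternatives were library totals, upper-quartile factors, DESeq2 1.42.0, limma 3.58.1 on log2(FPKM + 1) and log2(FPKM + 0.1), other filters, a block on title letters, genes with whole counts only, and leaving out each library.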

Additional observations from a re-analysis of the deposited data

How the results depend on the processing

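All 17 genes of the stretches were called at least 2-fold lower under each of the 15 other fits, and inside the block the stretches kept the same genes. The stretches were defined by that limit on the same libraries, and their smallest difference was 5.48-fold. This outcome and the member counts below therefore describe the fits and lend no support. Runs of 8-fold and 16-fold limits, and runs passing the borders, were added after the data were examined: inside the block the longest runs were 5 and 5 genes at 8-fold and 5 and 2 genes at 16-fold, by construction of a stricter limit. Of 403 log2 fold changes of tested members under other settings, 400 kept direction and side of the threshold. POX09344 and POX09352 became called as lower without MuPOX05503 replicate 1 (log2 fold change -0.49 and -0.55), and POX09347, not called in any of these fits, ranged from -1.24 to 0.057 with libraries left out, reversing without Ku70 replicate 1. The number of members at least 2-fold higher was 3 to 5 when libraries were left out, and the number at least 2-fold lower was 17 to 18. The members' median log2 fold change was -2.81 with limma on log2(FPKM + 1), -2.89 without a filter and -3.58 with a mean FPKM of at least 5, and -3.22 to -3.04 with libraries left out; filters change which members enter. As a share of summed FPKM the block took 0.869% in Ku70 and 0.219% in MuPOX05503, and 0.170% of counts in MuPOX05503 without genes whose counts were not whole. Library totals moved the median gene by 0.11 on the log2 scale. The replicate block on title letters called 18 members lower and 5 higher, and 5529 genes in all against 5672. Deviations of same-letter libraries correlated at 0.01, -0.03 and -0.01, and no library correlated best with its own letter. The labels do not say what the letters mark. Without a filter on low values POX09348 was also called higher (log2 fold change 1.37, SE 0.40), which gave 6 members higher in place of 5. Depth limits POX09347, POX09349 and POX09350.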
